A study of Mus musculus with 10 samples.

Results

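The genes described here are 9 components and regulators of complement, C3, C4b, C1ra, C1s1, Cfb, Cfd, C2, Masp1 and Serping1. They were chosen by gene symbol from the 54532 genes of a table of FPKM in mouse lungs, and all 9 symbols were found. FPKM counts the fragments sequenced from a gene, divided by the gene's length in kilobases and by the size of the library. The lungs came from wild-type C57/BL6 pups collected at postnatal day 14 (P14). In the IncPBF group (increased pulmonary blood flow, 5 lungs), a fistula had been made at P7 by puncturing from the abdominal aorta into the inferior vena cava under isoflurane. In the sham group (5 lungs), the pups went through the same anesthesia and laparotomy without the puncture. Pups of either sex were used, and the labels give neither sex, litter nor calendar date of surgery for a lung. The labels do not say whether a lung is 1 animal or a pool, so the p-values measure the spread between these samples.

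Complement is a cascade of plasma proteins that marks microbes and damaged cells for removal. The classical and lectin pathways cleave C4 and C2 through the serine proteases C1r and C1s or the MASPs, the alternative pathway works through factor B and factor D, and all routes meet at C3. The liver makes most of the plasma proteins, but epithelial cells, fibroblasts and macrophages of the lung also make some of them.

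Only 4 of the 9 members, C1ra, C1s1, Cfd and C3, had a promoter in the RefSeq promoter table used here (GRCm38.p6). The C3 window and a window of C1s1 are shown because they hold a match to a recognition motif of C/EBP factors. C/EBP factors are known activators of acute-phase genes, and both C3 and C1s1 were tested. Each window runs over the 250 bases before an annotated start, 5′ to 3′ on the gene's strand, with matches in capitals. The C1s1 window shown lies at chr6:124542360-124542609 and the C3 window at chr17:57228137-57228386, both on the minus strand. A further C1s1 window, at chr6:124542322-124542571 before another annotated start, is not shown.
C1s1: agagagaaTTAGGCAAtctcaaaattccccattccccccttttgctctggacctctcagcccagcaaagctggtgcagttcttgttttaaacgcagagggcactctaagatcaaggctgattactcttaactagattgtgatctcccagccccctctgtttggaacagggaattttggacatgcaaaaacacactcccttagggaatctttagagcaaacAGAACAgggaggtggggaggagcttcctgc
C3: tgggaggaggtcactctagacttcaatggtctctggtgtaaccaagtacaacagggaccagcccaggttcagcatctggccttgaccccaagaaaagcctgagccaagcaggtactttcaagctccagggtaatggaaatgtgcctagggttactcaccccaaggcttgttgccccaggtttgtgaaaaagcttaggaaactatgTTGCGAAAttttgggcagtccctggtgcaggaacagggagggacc

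The letters TTGCNNAA, searched on both strands, matched 45 bases before the start of C3. On the opposite strand they matched 242 bases before the C1s1 start of the window shown. The further C1s1 window held no match to TTGCNNAA. This motif was found in 9.56% of 32851 promoter windows of the same length. A motif of the glucocorticoid receptor, AGAACA, matched 30 bases before the C1s1 start of the window shown. It lay 68 bases before the other C1s1 start and occurs in 16.1% of all windows. The interferon motifs GAS, with the letters TTCNNNGAA (7.02% of windows), and ISRE (2.98%) and the letters TATAAA (12.4%) were not found in any of the 4 members' windows. None of the 5 motifs was found in the windows of C1ra and Cfd. The windows of 5 members were not analysed here, and a match is a description of these letters and not evidence of binding.

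The lungs had 16103423 to 20318525 fragments on genes, and 1 fragment on a gene of 1 kb was worth 0.0482 to 0.0580 FPKM. Intervals and limits drawn from these depths cover counting error only. Sham lung 5 stood apart for airway genes, with Scgb1a1 (secretoglobin of club cells) at 128 FPKM against 4802 to 11743 in the other lungs. The groups also differed in sex-linked RNA. Xist, the RNA that silences one X chromosome in female cells, was at 52.4 to 66.5 FPKM in IncPBF lungs 2 to 5 and near 0 in IncPBF lung 1 and all sham lungs, so that for 4 of the 5 IncPBF lungs the surgery and this difference cannot be told apart. Ddx3y, a gene of the Y chromosome, was at 18.6 FPKM in IncPBF lung 1 and 21.8 to 24.6 FPKM in the sham lungs. Values for IncPBF lung 1 are therefore given apart further on.

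The members differed widely in level. In the sham lungs, Serping1 was the highest by mean FPKM, followed by C3, C1s1, C1ra, C4b, C2, Masp1, Cfb and Cfd. In this order the ranges over lungs of C3 and C1s1 overlapped, as did those of C1ra and C4b and those of Cfb and Cfd. In the IncPBF lungs C3 and C1s1 had nearly equal means, at 18.4 and 18.7 FPKM, and C4b no longer reached the range of C1ra. A mean of at least 0.5 FPKM over all lungs, the minimum for the test, was reached by 6 members, and Masp1, Cfb and Cfd fell short of it.

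All 6 tested members were lower in IncPBF than in sham lungs at an adjusted p of 0.05 (limma on log2(FPKM + 0.1)). Over all 15388 genes tested, 32.3% were called, 16.2% lower and 16.1% higher. The 2 groups did not overlap for 4 of the 6, C3, C4b, C1s1 and Serping1, compared with 11.2% of all genes tested that lay lower and 12.0% that lay higher without overlap. The median log2 fold change was −0.70 over the 6 members and 0.01 over all genes tested. In RNA from whole lungs, fewer cells of a type and less RNA per cell cannot be told apart.

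**Figure D1:**
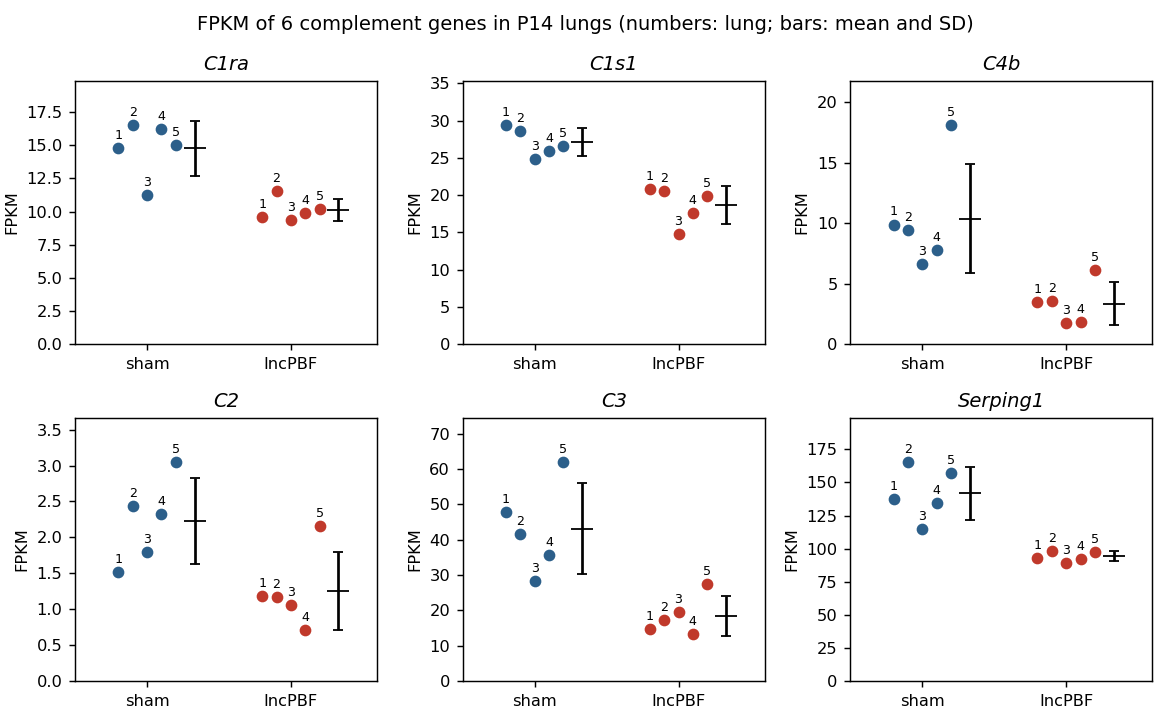
FPKM (y axis, from 0) of the 6 tested members in each sham (blue) and IncPBF (red) lung, with the lung's number above its point and the mean and SD of 5 lungs as a black bar. The groups are apart for C4b, C1s1, C3 and Serping1, while IncPBF lung 2 reaches sham lung 3 for C1ra and IncPBF lung 5 lies among the sham lungs for C2.

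C1ra and C1s1 encode the proteases C1r and C1s, which sit with C1q in the C1 complex and start the classical pathway. C1ra stood at 9.58, 11.5, 9.39, 9.88 and 10.2 FPKM in IncPBF lungs 1 to 5 and at 14.8, 16.5, 11.3, 16.2 and 15.0 FPKM in sham lungs 1 to 5. Only sham lung 3 came down to the IncPBF range, below IncPBF lung 2. The means were 10.1 ± 0.848 and 14.8 ± 2.10 FPKM (SD, n = 5 each), a log2 fold change of −0.53 (SE 0.10, limma adjusted p = 0.00253). C1s1 stood at 20.8, 20.5, 14.8, 17.7 and 19.9 FPKM in the IncPBF lungs and at 29.4, 28.6, 24.9, 26.0 and 26.6 FPKM in the sham lungs. All IncPBF lungs lay below all sham lungs, and IncPBF lung 3 was the lowest. Its log2 fold change was −0.54 (SE 0.09, limma adjusted p = 0.00151).

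Serping1 encodes the C1 inhibitor, the serpin that inactivates C1r, C1s and the MASPs. It was the most abundant member, at 93.2, 98.5, 89.3, 92.2 and 97.4 FPKM in the IncPBF lungs and 138, 166, 115, 135 and 157 FPKM in the sham lungs. The IncPBF lungs were close together, with a coefficient of variation of 4.04% against 14.2% among the sham lungs, and all were below the lowest sham lung. Its log2 fold change was −0.58 (SE 0.09, limma adjusted p = 0.000804).

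Ratios within a lung compared these genes with each other free of scaling between lungs. The log2 ratio of C1s1 to C1ra was 0.87 ± 0.17 in IncPBF and 0.88 ± 0.18 in sham lungs (SD, n = 5 each), a difference of −0.01 (exact permutation p = 0.889, two-sided). The log2 ratio of C1s1 to Serping1 was −2.33 ± 0.16 and −2.38 ± 0.17, a difference of 0.04 (exact permutation p = 0.714). No difference in either ratio was detectable with 5 lungs a group, and the ranges over lungs overlapped.

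C4b encodes C4, whose larger fragment binds to surfaces and forms the base of the classical and lectin C3 convertase. It stood at 3.50, 3.56, 1.77, 1.85 and 6.16 FPKM in the IncPBF lungs and at 9.90, 9.44, 6.63, 7.83 and 18.1 FPKM in the sham lungs. The groups did not overlap, but only a small gap lay between IncPBF lung 5 and sham lung 3, and lung 5 was the highest in both groups. Its log2 fold change of −1.66 (SE 0.35, limma adjusted p = 0.00427) was the farthest from 0 of the 6, 3.15 times higher in sham than in IncPBF lungs on this scale.

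C2 encodes the protease that binds to the C4 fragment and completes this convertase. Its FPKM were 1.18, 1.17, 1.06, 0.703 and 2.15 in the IncPBF lungs and 1.51, 2.44, 1.80, 2.32 and 3.06 in the sham lungs. IncPBF lung 5 lay above sham lungs 1 and 3, and the other IncPBF lungs were below all sham lungs. The log2 fold change was −0.82 (SE 0.26, limma adjusted p = 0.0309). This call was lost in 7 of the 10 fits that left out 1 lung, with adjusted p from 0.0551 to 0.0725 in those. They were the fits without IncPBF lung 1, 2, 3 or 4 or without sham lung 2, 4 or 5. The log2 ratio of C2 to C4b was higher in IncPBF lungs by 0.83 (−1.29 ± 0.35 against −2.12 ± 0.43, SD, n = 5 each, exact permutation p = 0.00794, adjusted over 5 ratios 0.0198), without overlap. C4b was thus further below its sham level than C2.

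C3 is the protein on which all pathways converge and the source of the opsonin C3b. It stood at 14.6, 17.1, 19.4, 13.3 and 27.4 FPKM in the IncPBF lungs and at 47.7, 41.5, 28.2, 35.7 and 62.1 FPKM in the sham lungs. Sham lung 3, the lowest of its group, lay just above IncPBF lung 5, the highest of the other. The log2 fold change was −1.22 (SE 0.23, limma adjusted p = 0.00217), with means of 18.4 ± 5.59 and 43.1 ± 12.8 FPKM (SD, n = 5 each).

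C3 and C4b were further below their sham levels than Serping1 by 0.64 and 1.07 on the log2 scale. These 2 ratios were chosen after the values were seen. Each had an exact permutation p of 0.0317, which became 0.0556 when adjusted over all 7 ratios, so that neither passed the threshold. C3, C4b and C2 also varied more among lungs of 1 group than the other tested members. The coefficients of variation ran from 26.9% to 52.9% for these 3 genes and from 4.04% to 14.2% for C1ra, C1s1 and Serping1.

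The members without a test across genes were low. Masp1 encodes the MASP-1 protease of the lectin pathway and, by alternative splicing, MASP-3. Its FPKM were 0.310, 0.364, 0.484, 0.430 and 0.529 in the IncPBF lungs and 0.261, 0.270, 0.400, 0.250 and 0.339 in the sham lungs, from 46 to 108 fragments a lung. It was the only member with a higher level in IncPBF and an exact permutation p under 0.05 (0.0397 on FPKM), but the groups overlapped. In a limma fit without the minimum level its adjusted p was 0.322, and the permutation p on the log2 scale, 0.0476, rose above 0.05 in 6 of the 10 leave-one-out comparisons, those without IncPBF lung 3, 4 or 5 or sham lung 1, 2 or 4. FPKM here pools the isoforms.

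Cfb encodes factor B, which carries the protease of the alternative C3 convertase. It had 5, 1, 4, 1 and 5 fragments in the IncPBF lungs and 8, 2, 4, 6 and 8 in the sham lungs, or 0.0189 to 0.0916 and 0.0376 to 0.163 FPKM. The ranges overlapped (exact permutation p = 0.111). Cfd encodes factor D (adipsin), which cleaves factor B and is made above all by adipocytes. It had 0, 0, 1, 9 and 2 fragments in the IncPBF lungs and 0, 0, 0, 2 and 1 in the sham lungs (exact permutation p = 0.563). Only IncPBF lung 4 had more than 3 fragments. A difference in Cfd was not detectable at this depth.

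The log2 ratio of Cfb to C3 was higher in IncPBF lungs by 0.83 (exact permutation p = 0.00794). With a pseudocount of 0.01 in place of 0.1 it was higher by 0.37 (p = 0.468 in the same permutation test), since Cfb is below the pseudocount in most lungs. The log2 ratio of C2 to Cfb differed by −0.44 (exact permutation p = 0.270), and by −0.02 with a pseudocount of 0.01 (p = 0.984 in the same permutation test).

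Several members share sequence with other genes, and the sources used here do not give the rule by which fragments were counted. On the GENCODE M21 annotation of GRCm38, Cfb shared 2246 of its 2825 exonic bases (79.5%) with Gm20547, a same-strand gene model that joins Cfb and C2 and had 0 fragments in every lung. C2 shared 42.8% of its exonic bases with Gm20547 and 4.2% with Zbtb12 on the opposite strand. If fragments on shared bases were left out of the count, the FPKM of Cfb on its 579 unshared bases would be 0.286 in IncPBF and 0.531 in sham lungs by mean, and that of C2 on 2055 unshared bases 2.36 and 4.19. The levels of Cfb and C2, and every ratio that holds them, are uncertain to this extent. C1s1 shared 18.4% of its exonic bases with the antisense model Gm16567, which also had 0 fragments.

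The close copies of 3 members were nearly silent in the table. C4a shares 34.6% of the 50-base words of C4b and had 5 to 13 fragments a lung, against 182 to 1799 for C4b. C1rb shares 48.0% of the words of C1ra and had 0 to 1 fragment in 9 lungs and 23 in sham lung 1. C1s2 shares 21.8% of those of C1s1 and had 0 to 4 fragments. How fragments that match both copies were assigned was not tested.

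Members lie close together at 2 places in the genome. C1ra (chr6:124512405-124523443, plus strand) and C1s1 (chr6:124530345-124542359, minus strand) converge with a gap of 6901 bases, and both were lower by nearly the same amount. C1rl, the neighbour on the other side of C1ra, had no call (log2 fold change −0.37, limma adjusted p = 0.151).

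C4b (chr17:34728380-34743882), Cfb (chr17:34856374-34862518) and C2 (chr17:34862604-34898265) lie on the minus strand in the class III part of the major histocompatibility complex. Of 23 genes from Tnxb to Slc44a4, 10 were tested, 3 were lower and 1 was higher. Next to C4b and C2, Tnxb, the gene of the matrix protein tenascin-X, was lower by −0.81 on the log2 scale (limma adjusted p = 0.000117). Zbtb12, a zinc finger gene that overlaps C2 on the other strand, was higher by 0.55 (limma adjusted p = 0.00695). The 6 tested genes Stk19, Dxo, Skiv2l, Nelfe, Ehmt2 and Slc44a4 had no call, with log2 fold changes from −0.04 to 0.17. The calls in the stretch were thus of both directions and stood beside genes with none.

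**Figure D2:**
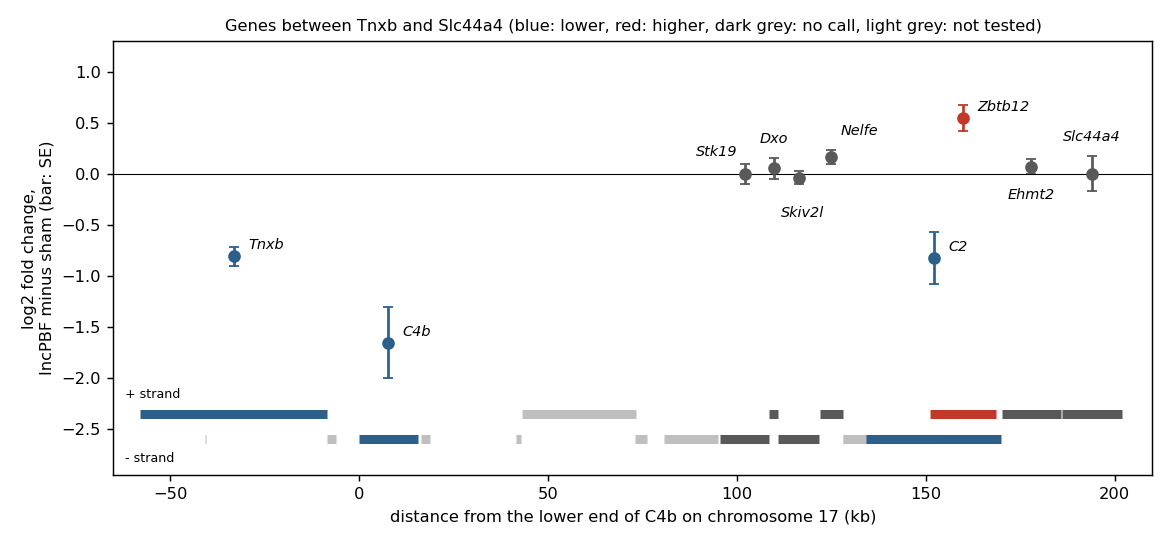
Log2 fold change with standard error (y axis) of the tested genes from Tnxb to Slc44a4 against distance in kb from the lower end of C4b, with gene spans by strand drawn below. C4b, C2 and Tnxb are lower, Zbtb12 is higher and the 6 genes Stk19, Dxo, Skiv2l, Nelfe, Ehmt2 and Slc44a4 lie near 0.

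Of 45 other complement genes, 26 were tested. Of these, 7 were lower and 1 higher, while 16.2% of all 15388 genes tested were lower and 16.1% higher. The median log2 fold change of the 26 was −0.26. The count of lower genes was 3 without IncPBF lung 2, sham lung 4 or sham lung 5 and 4 without IncPBF lung 3 or 4, and C7, Clu and Cr1l were called in all 10 fits that left out 1 lung. Among the classical pathway genes, C1qb and C1qc, chains of the recognition protein C1q that macrophages make, were lower by −0.35 and −0.38 (limma adjusted p = 0.0289 and 0.0299). C1qb was called in 4 and C1qc in 3 of the 10 fits that left out 1 lung. Both calls were lost without IncPBF lung 2, 3 or 4 or sham lung 2, 4 or 5, and that of C1qc also without IncPBF lung 5, as well as without the minimum level and with limma-voom on recovered fragments. C1qa had a log2 fold change of −0.30 and no call (limma adjusted p = 0.0727). Of the 8 lectin pathway genes, 4 were tested and none was called, and Masp2, the protease that cleaves C4 and C2, had 0 to 10 fragments a lung.

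Among the terminal components, which build the membrane attack complex, C7 was lower by −0.81 (limma adjusted p = 0.00195), at 61.0 ± 10.6 FPKM in IncPBF and 107 ± 19.4 FPKM in sham lungs (SD, n = 5 each), without overlap. C6 was lower by −0.45 (limma adjusted p = 0.0262) and lost its call without IncPBF lung 2 or 4 or sham lung 1, 4 or 5 and without the minimum level. The other 2 terminal genes tested had no call.

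Among the soluble regulators, Clu, the gene of clusterin, which holds back the terminal complex, was lower by −0.59 (limma adjusted p = 0.00163). Cfi, the gene of factor I, was under the minimum level at 0.314 and 0.439 FPKM by mean (exact permutation p = 0.0794).

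Of the membrane regulators, which limit complement on a cell's own surface, Cd46 and Cr1l were lower by −0.55 and −0.25 (limma adjusted p = 0.0413 and 0.0119). The call of Cd46 was kept in 2 of the 10 fits that left out 1 lung, those without IncPBF lung 4 or sham lung 2, and was lost with an equal total per lung, without the minimum level and with the replicate block. The receptors of the anaphylatoxins had no call, with C3ar1 at −0.60 and C5ar1 at −0.28 (limma adjusted p = 0.0575 and 0.0871). Itgam, the alpha chain of complement receptor 3 on myeloid cells, was the gene that rose, by 1.04 on the log2 scale (limma adjusted p = 0.00242), from 0.423 to 0.885 FPKM over the sham lungs to 1.08 to 1.45 FPKM over the IncPBF lungs.

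**Figure D3:**
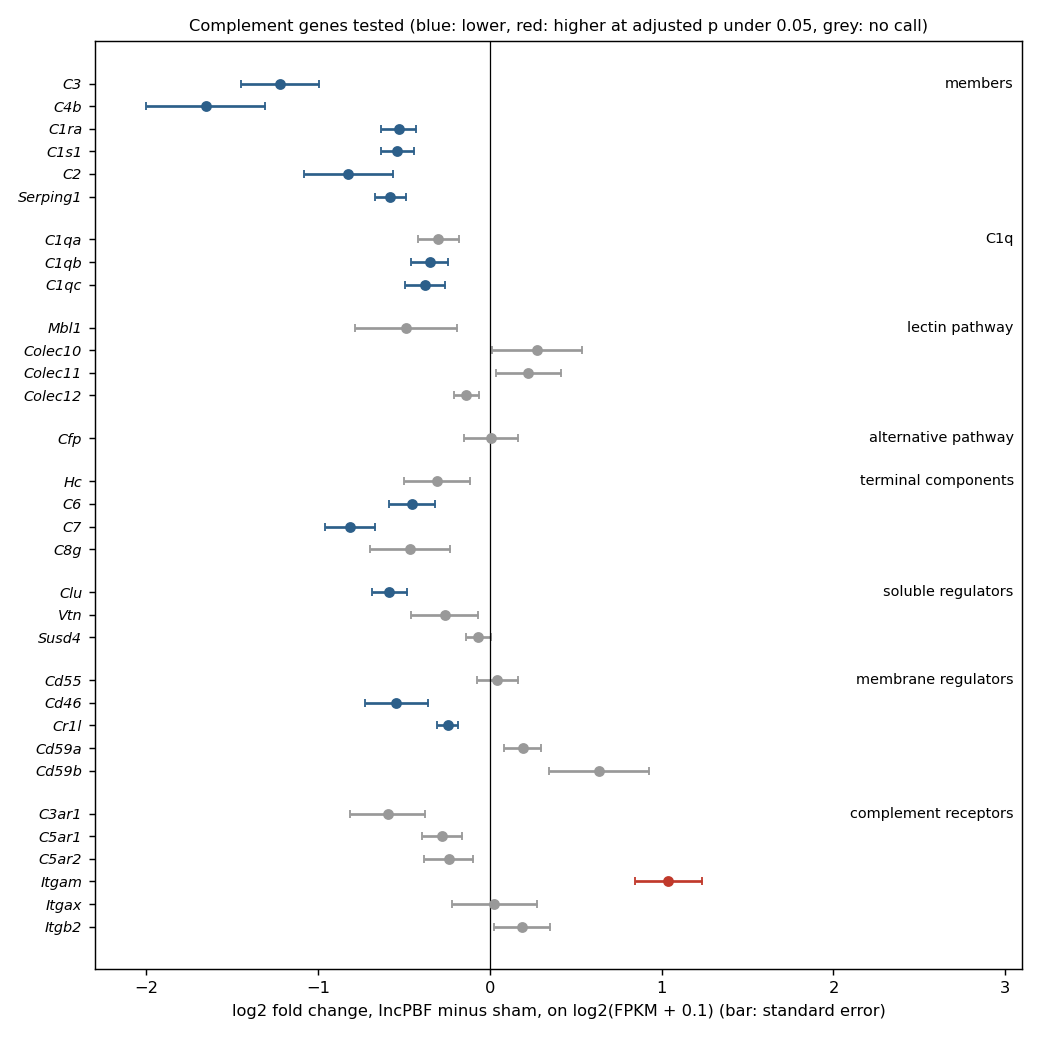
Log2 fold change of IncPBF against sham lungs with its standard error (x axis) for the 6 tested members and 26 other tested complement genes (y axis), grouped by role. Blue points are lower and red points higher at a limma adjusted p under 0.05. C4b and C3 lie farthest to the left, and Itgam is the red point.

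Lungs ranked alike for sets of members within each group. C3, C4b and C2 were highest in lung 5 of both groups, C1ra and Serping1 in lung 2 of both, and C1s1 in lung 1 of both. The labels do not say whether lungs of the same number belong together across groups. Sham lung 3 was the lowest sham lung for 5 of the 6 members, all but C2, and IncPBF lung 3 the lowest IncPBF lung for 4, all but C3 and C2. Airway RNA also differed between these lungs. Among sham lungs, Scgb1a1 was lowest in lung 5 (128 FPKM) and highest in lung 3 (11743 FPKM). Among IncPBF lungs it was highest in lung 4 (10003 FPKM), the lowest for C3 and C2, and 4853 FPKM in lung 5. IncPBF lung 3 went the other way, with the lowest Scgb1a1 of its group (4802 FPKM). The part of airway tissue in these ranks was not tested.

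The genes whose pattern over the 10 lungs was most like that of a member were found by the root mean square difference of z-scores, where 0 is an identical pattern. The nearest to C3 was Ust (0.09), an enzyme that sulfates glycosaminoglycans. The nearest to C4b was Smad9 (0.14), followed by Lrrn4 (0.15) and Zfp365 (0.20). The 3 nearest to C2 were Msln (0.30, mesothelin), Calhm2 (0.32) and Upk3b (0.32). Of these, Lrrn4, Msln and Upk3b are on a list of markers of the mesothelium, the cell layer that covers the lung. The nearest to Serping1 was Abhd17c (0.14), and Ager, a marker of flat alveolar type 1 cells, was also among its 3 nearest (0.16). The nearest to C1ra was Tax1bp1 (0.26) and to C1s1 Rgmb (0.14). These likenesses are a description over lungs that share the group difference.

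Of 6 mesothelial markers, 5 were tested and all 5 were lower in IncPBF lungs, with a median log2 fold change of −0.88. Over all 15388 genes tested, 16.2% were lower. The summed level of the list was 91.8 to 117 FPKM in IncPBF and 132 to 206 FPKM in sham lungs. By mean, most of this sum was Krt19 and Upk1b, and Krt19 had a log2 fold change of only −0.22. Upk3b was at 5.58 and 13.4 FPKM and Lrrn4 at 0.818 and 2.92 FPKM by mean in IncPBF and sham lungs. Lung 5 had the highest Msln, Upk3b and Lrrn4 in both groups, as it had for C3, C4b and C2. Upk1b was at 29.3 and 51.8 FPKM by mean without overlap, and Krt19 at 42.2 and 49.2 FPKM. The part of these cells in the levels of C3, C4b and C2 was not tested.

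**Figure D4:**
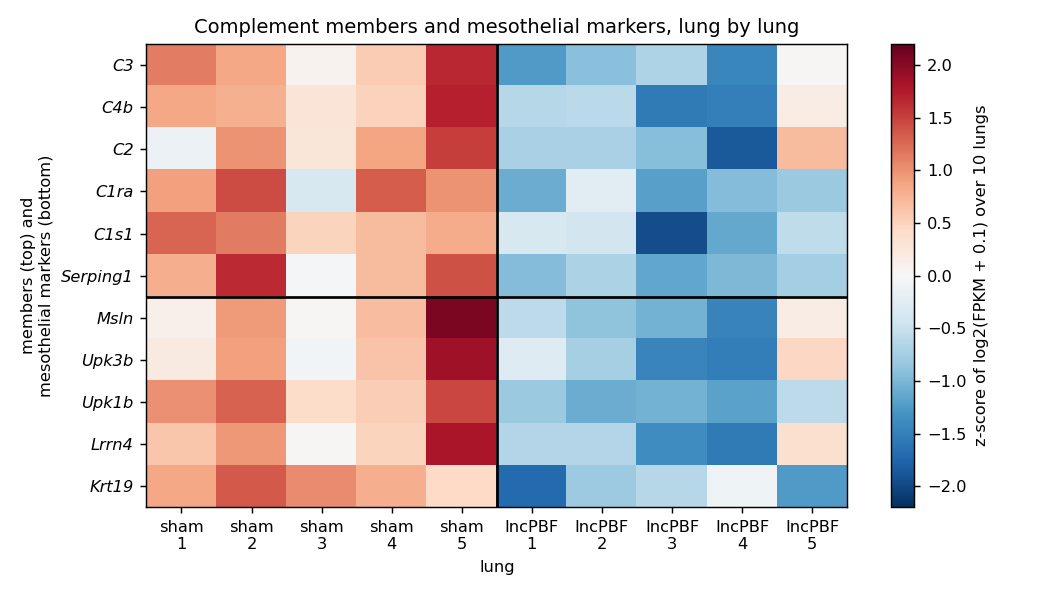
Z-scores of log2(FPKM + 0.1) over the 10 lungs (color) for the 6 tested members (above the line) and 5 mesothelial markers (below it), with a column per lung. Lung 5 is the highest of its group for C3, C4b, C2, Msln, Upk3b and Lrrn4, and the sham columns are higher than the IncPBF columns on average in every row.

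Other cell type lists moved less evenly. Of 10 macrophage markers, 2 were lower, Lyz2 (lysozyme, 1389 and 2366 FPKM by mean) and Mertk, and 8 had no call. Of 10 fibroblast markers, 3 were higher and 2 lower, among them Col1a1 at 0.35 and Npnt at −0.50 on the log2 scale (limma adjusted p = 0.0392 and 0.00622). Pdgfra, the other lower one, chosen after its values were seen, was at 22.4 and 58.1 FPKM by mean. Of 6 markers of alveolar type 2 cells, 3 were lower, among them Sftpb at −0.64 (limma adjusted p = 0.000284). The macrophage list summed to 1162 to 1777 FPKM in IncPBF and 2245 to 2876 FPKM in sham lungs, mostly Lyz2. The 9 other macrophage markers summed to 69.8 to 382 FPKM in IncPBF and 97.0 to 358 FPKM in sham lungs, with overlap. By mean, most of this sum was Chil3, at 22.9 to 318.5 FPKM in IncPBF and 38.9 to 277.2 FPKM in sham lungs, with no call. The fibroblast list summed to 1202 to 1440 and 1287 to 1602 FPKM. The part of any of these cells in the members' levels was not tested.

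Hepatocyte genes and the adipocyte hormone genes Lep and Adipoq were near the floor. None of the 6 hepatocyte markers reached the minimum level, their sum was at most 0.862 FPKM in any lung, and albumin (Alb) had 7 to 29 fragments. Of 7 adipocyte markers, 2 were tested. Cidec was lower, at 1.28 and 2.59 FPKM by mean, and Fabp4, at 0.983 and 0.847 FPKM, had no call. Lep was at 0 in every lung, and Adipoq had 0 to 7 fragments. Of 6 airway markers none was called. Their sum was 245 FPKM in sham lung 5 and up to 12670 FPKM in the sham group, with a median of 6823 FPKM. In the IncPBF lungs it was 5124 to 10770 FPKM, with a median of 6425 FPKM. Of 6 neutrophil markers only Mmp9 was called, higher by 0.44 (limma adjusted p = 0.0294).

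Genes that respond to inflammation did not share 1 direction. Of 10 acute-phase and NF-kB genes, 7 were tested, Il1b was higher and Lbp and Nfkbia were lower. Of 8 interferon-response genes, 7 were tested and Ifit1 and Ifit3 were lower, by −0.95 each (limma adjusted p = 0.000585 and 0.00203).

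IncPBF lung 1, the only one without Xist, lay below every sham lung for all 6 tested members. Compared alone with the 5 sham lungs, it gave log2 fold changes of −1.50 for C3, −1.45 for C4b, −0.61 for C1ra, −0.38 for C1s1, −0.83 for C2 and −0.60 for Serping1. With 1 lung against 5, limma takes the spread from the sham lungs, and none of the 6 passed the threshold (adjusted p from 0.119 to 0.296), while all 6 had an unadjusted limma p under 0.05. With log2 Xist as a covariate over all 10 lungs the estimates were −1.43, −1.37, −0.58, −0.36, −0.78 and −0.57 in the same order. Again none was past the threshold (limma adjusted p from 0.0692 to 0.374), while 5, all but C2, had an unadjusted limma p under 0.05. Xist was near 0 in all sham lungs and high in IncPBF lungs 2 to 5, so these estimates rest mainly on IncPBF lung 1 against sham. The 2 fits are therefore not separate checks. All signs stayed negative, and the call was not kept for any member. Of the other complement genes, Clu kept its call in the fit with the covariate.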

How the data were processed

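Total RNA from P14 lungs was made into NEBNext libraries and sequenced on a NovaSeq instrument. The authors deposited FPKM per gene with the gene length. The submitters' processing notes name Bowtie 0.12.2, the counting rule is not given in the sources used here, and the builds listed include GRCm38, on which 98.3% of the gene coordinates equalled GENCODE M21. The IncPBF columns, named vo, were assigned to the group and not to single samples. FPKM times length gave whole fragments for 100% of values (tolerance 0.01, widened in proportion to the count for high counts). For the highest counts this check therefore says little.

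The 15388 genes whose FPKM averaged 0.5 or more entered a fit by limma 3.58.1 in R 4.3.3 of log2(FPKM + 0.1) (eBayes with trend), all 10 lungs, no covariates, Benjamini-Hochberg adjustment over all of them. Fold changes on this scale understate changes of low genes. Single values and ratios were compared by exact two-sided permutation over 252 assignments, with a smallest p of 0.00794. The fit was also run on simulated fragments with the same setting of spread for all genes. That spread was narrower than the one seen here for C3, C4b and C2. Members and lists were chosen with earlier results of these data known. Named are the members, called or closely related complement genes, sex-linked genes and some of the neighbours. Also named are some of the 3 genes most alike each member and some of the 3 most abundant of the marker and response lists. Most of these listed genes had a call. Csf1r, Col3a1, Sftpc, S100a8, S100a9, Hp, Lcn2, Irf1 and Gbp2 also belong to the 3 most abundant of their lists, had no call and are not described. Mertk, Pdgfra, Mmp9, Il1b, Lbp, Ifit1, Lep, Adipoq, Tnxb and other class III genes were named after their values were seen. A further complement gene is not reported here. Python 3.11.15, pandas 2.3.3 and scipy 1.17.1 were used for the rest.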

Additional observations from a re-analysis of the deposited data

Results flagged for a closer look

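In 60 sets of 5 lungs (a gene in a group) the highest and lowest lung were compared with the rest, and 4 sets held a lung whose gap to its nearest neighbour was more than 0.71 of the range. Chance gives this in about 1 set of 20. C4b was at 18.1 FPKM in sham lung 5, the lung low in Scgb1a1, against 6.63 to 9.90 FPKM in the other sham lungs. Cfd was at 0.566 FPKM in IncPBF lung 4, from 9 fragments, against 0 to 0.104 FPKM in the others. C1rb was at 0.528 FPKM in sham lung 1 against at most 0.0236 FPKM. Masp2 was at 0.146 FPKM in IncPBF lung 5 against 0.0161 to 0.0491 FPKM.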

How the results depend on the processing

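Alternatives changed the pseudocount (1 or 0.01), the filter, the scaling, the trend, the replicate block, the use of recovered fragments with limma-voom and the lungs included. Calls of C3, C4b, C1ra, C1s1 and Serping1 held in all of them but the 2 on Xist, and all 6 members stayed negative in every one. With Xist as a covariate 741 genes were called, 0 members, 1 other complement gene (Clu) lower and 0 higher. With IncPBF lung 1 alone against sham the counts were 154, 0, 0 and 0. C2 also lost its call without a filter (adjusted p = 0.0664). Other complement genes called lower were 3 without a filter (C7, Clu, Cr1l), and those called higher were 0 at a minimum mean of 1 FPKM, which removes Itgam. Leaving out 1 lung gave 3869 to 5234 genes, 5 to 6 members lower, 3 to 8 other complement genes lower and 1 to 2 higher. Cd59a joined Itgam without sham lung 3.

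The ratio of C1s1 to C1ra changed sign within −0.066 to 0.057 when 1 lung was left out and was 0.23 with IncPBF lung 1 alone. That of C1s1 to Serping1 ran from −0.003 to 0.106. The ratio of C2 to C4b was 0.63 and that of Cfb to C3 1.42 with IncPBF lung 1 alone, where 1 lung against 5 cannot reach p under 0.05. Leaving out 1 lung gave 0.68 to 0.93, 0.69 to 0.93 and, for C2 to Cfb, −0.65 to −0.26. Cfb to C3 was 0.37 with a pseudocount of 0.01 and 0.37 on fragments, and C2 to Cfb was −0.46 (exact p = 0.0397) with a pseudocount of 1 and −0.02 with one of 0.01 and on fragments (exact p = 0.984). For C3 to Serping1 the range was −0.78 to −0.53, for C4b to Serping1 −1.31 to −0.89.

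Over all genes tested, lungs of the same number did not deviate together (r from −0.07 to 0.09, the best match for 2 of 5). For all 6 tested members, however, the replicate block lowered the standard error, for C4b from 0.346 to 0.103 and for C3 from 0.226 to 0.149. Whether lungs of the same number share a litter or batch is not given in the labels. With the replicate block all 6 member calls were kept, the call of Cd46 was lost and C3ar1 was called lower, C2 to C4b was 0.83 and Cfb to C3 0.83, each at p = 0.0625 in an exact sign-flip test, the smallest p that 5 pairs allow. Depth limits Cfb, Cfd, C1rb, C1s2 and Masp2.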
